A study of Mus musculus with 8 samples.

Results

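The 2352 regions described here are wide H2A.Z peaks of control mouse testis that have no counterpart in testis of Znhit1-CKO mice. They were selected on the measured peak lists. A member is a control peak of 1000 to under 2500 bp that shares not even 1 bp with any Znhit1-CKO peak, and 2352 of the 48752 control peaks met that rule. The reference group is the 13962 control peaks of the same widths that do overlap a Znhit1-CKO peak, called kept peaks below. In the study, H2A.Z was mapped in testes by ChIP-seq, which sequences the DNA brought down by an antibody to the histone, at postnatal day 14. Of its 8 libraries, 2 replicates each are immunoprecipitates and inputs of control testes, and 2 each are immunoprecipitates and inputs of Znhit1-CKO testes, a conditional knockout that the protocol also writes as Znhit1-sKO. The cells were a digest of whole testis, labelled testis cells, although the study states its question for germ cells. The allele, the Cre driver, the strain and the controls' own genotype are not among the labels used here.

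H2A.Z is a variant of histone H2A that is placed into nucleosomes by exchange complexes such as SRCAP, of which ZNHIT1 is a subunit. It is best known from the nucleosomes on both sides of transcription starts, of active genes and of genes held ready for expression, and it also marks enhancers. In the juvenile testis the first wave of germ cells passes from spermatogonia into meiotic prophase, beside Sertoli and other somatic cells.

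The deposited data hold 1 peak list per genotype and no value per library, so none of the values below has an error between animals. The word lost means that no interval of the Znhit1-CKO list touches the control peak. It does not mean that H2A.Z was absent, and whether signal fell below the peak threshold or depth and background differed was not tested. Intervals are exact 95% binomial intervals for shares and order-statistic intervals for medians. They cover counting error only, and neighbouring peaks are not independent. The labels state over 30000000 reads per library, and the depth behind each peak is unknown. The genome build was mm10, and coordinates count from 1.

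Promoters of 6 genes are printed first, because the results on promoter CpG content and motifs turn on such sequences. They are examples of promoters only, and no sequence was read for members elsewhere. Sycp1, Sycp2, Syce1 and Syce3 encode proteins of the synaptonemal complex, the structure that holds paired chromosomes together in meiosis. Crabp1 encodes a retinoic acid binding protein and Grik3 a glutamate receptor subunit. Each promoter runs from 250 bases before to 50 bases after a transcription start and lies wholly within a lost peak. The sequences are from RefSeq on GRCm38.p6, the assembly whose primary coordinates are those of mm10, and are written 5′ to 3′ along the gene's strand with every CpG in capitals.
Sycp1: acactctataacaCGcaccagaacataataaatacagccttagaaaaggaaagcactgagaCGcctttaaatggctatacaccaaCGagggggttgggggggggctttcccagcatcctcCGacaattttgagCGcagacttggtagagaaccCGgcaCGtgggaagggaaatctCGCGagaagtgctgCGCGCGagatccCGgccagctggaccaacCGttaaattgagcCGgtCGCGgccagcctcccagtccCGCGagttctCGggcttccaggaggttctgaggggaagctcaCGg
Sycp2: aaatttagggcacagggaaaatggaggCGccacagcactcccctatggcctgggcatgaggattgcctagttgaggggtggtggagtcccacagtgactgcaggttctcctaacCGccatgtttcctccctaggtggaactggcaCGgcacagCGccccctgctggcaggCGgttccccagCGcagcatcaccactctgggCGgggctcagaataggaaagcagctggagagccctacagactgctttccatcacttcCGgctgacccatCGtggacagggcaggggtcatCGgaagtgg
Syce1: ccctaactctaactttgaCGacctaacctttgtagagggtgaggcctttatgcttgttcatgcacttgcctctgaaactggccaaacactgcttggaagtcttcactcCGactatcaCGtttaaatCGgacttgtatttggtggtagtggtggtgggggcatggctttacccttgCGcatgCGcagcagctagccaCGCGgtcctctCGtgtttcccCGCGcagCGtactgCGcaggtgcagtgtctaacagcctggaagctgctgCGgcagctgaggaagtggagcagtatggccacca
Syce3: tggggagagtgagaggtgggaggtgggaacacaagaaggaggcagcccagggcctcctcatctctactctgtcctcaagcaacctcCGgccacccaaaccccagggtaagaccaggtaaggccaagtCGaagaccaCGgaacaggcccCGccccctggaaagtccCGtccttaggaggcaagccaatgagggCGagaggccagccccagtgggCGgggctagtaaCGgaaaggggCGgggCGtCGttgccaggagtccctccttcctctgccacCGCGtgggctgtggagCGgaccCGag
Crabp1: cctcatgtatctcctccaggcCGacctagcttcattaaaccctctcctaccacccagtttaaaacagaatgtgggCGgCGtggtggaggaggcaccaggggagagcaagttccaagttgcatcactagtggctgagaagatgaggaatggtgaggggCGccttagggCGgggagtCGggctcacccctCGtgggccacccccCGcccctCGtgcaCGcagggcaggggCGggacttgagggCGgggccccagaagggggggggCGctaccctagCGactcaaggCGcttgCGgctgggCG
Grik3: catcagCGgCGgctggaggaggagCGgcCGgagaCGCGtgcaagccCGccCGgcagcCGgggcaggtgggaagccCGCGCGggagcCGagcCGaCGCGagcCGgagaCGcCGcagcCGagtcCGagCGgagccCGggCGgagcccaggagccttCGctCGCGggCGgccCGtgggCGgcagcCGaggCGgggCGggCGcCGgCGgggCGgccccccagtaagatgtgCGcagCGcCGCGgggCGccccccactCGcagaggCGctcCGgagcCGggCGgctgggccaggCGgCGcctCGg

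The Sycp1 promoter, at chr3:102936051-102936350 on the minus strand, held 21 CpGs, and its ratio of observed to expected CpG was 0.874. The ratio divides the number of CpGs by the number that the base composition alone would give. The Sycp2 promoter at chr2:178407609-178407908, minus strand, held 10 CpGs at a ratio of 0.363. Syce1 at chr7:140787805-140788104, minus strand, held 14 at a ratio of 0.625, and Syce3 at chr15:89410214-89410513, minus strand, held 15 at 0.475. The Crabp1 promoter at chr9:54764498-54764797, plus strand, held 17 at 0.543. At the other extreme stood Grik3 at chr4:125490446-125490745, plus strand, with 50 CpGs, a ratio of 1.01 and a G and C content of 82.0%.

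Loss was far less common among wide control peaks than in the control list as a whole. Of all control peaks, 50.7% had no Znhit1-CKO peak. Among those of 1000 to under 2500 bp it was 14.4% (13.9 to 15.0%), the 2352 members. These figures come from the rule itself and are given as description. The members covered 2.93 Mb. Their median width was 1179 bp (quartiles 1074 and 1351 bp), against 1452 bp for kept peaks. The narrowest was 1000 bp and the widest 2381 bp.

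The members crowded at the narrow side of the width range. Between 1000 and 1250 bp, 1467 of 5257 control peaks were lost (27.9%). The share was 13.1% (584 of 4474) from 1250 to under 1500 bp and 5.32% (271 of 5090) from 1500 to under 2000 bp. Only 30 of 1493 peaks of 2000 to under 2500 bp were lost (2.01%). Near the lower limit of the rule, 81 of 235 peaks of 1000 to 1009 bp were lost (34.5%) and 98 of 237 just outside it, from 990 bp (41.4%). At the upper limit, 0 of 159 peaks of 2400 to under 2500 bp were lost, which allows a share of up to 2.29%, and 3 of 120 in the next 100 bp. Since width and loss went together, the main comparisons with kept peaks below are also given within width bands. Those given without bands, such as motifs, starts on both strands, distance to genes and ends of non-coding genes, do not separate width from loss.

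Most members lay away from the ends of protein-coding genes. Only 421 (17.9%, 16.4 to 19.5%) came within 1 kb of a protein-coding gene's start or far end, against 69.9% of kept peaks and 31.1% of all control peaks. Another 700 (29.8%) lay inside a protein-coding gene more than 1 kb from its ends, against 14.2% of kept peaks. Outside genes, 250 members (10.6%) lay 1 to 10 kb from a gene end and 981 (41.7%) farther than 10 kb. The latter class held 11.5% of kept peaks. The make-up of the members was therefore closer to that of the control list as a whole, in which 34.4% of peaks lay over 10 kb from genes, than to that of kept peaks. Among peaks not at a gene end, the median distance to the nearest protein-coding gene end was 24769 bp for members and 15128 bp for kept peaks.

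**Figure D1:**
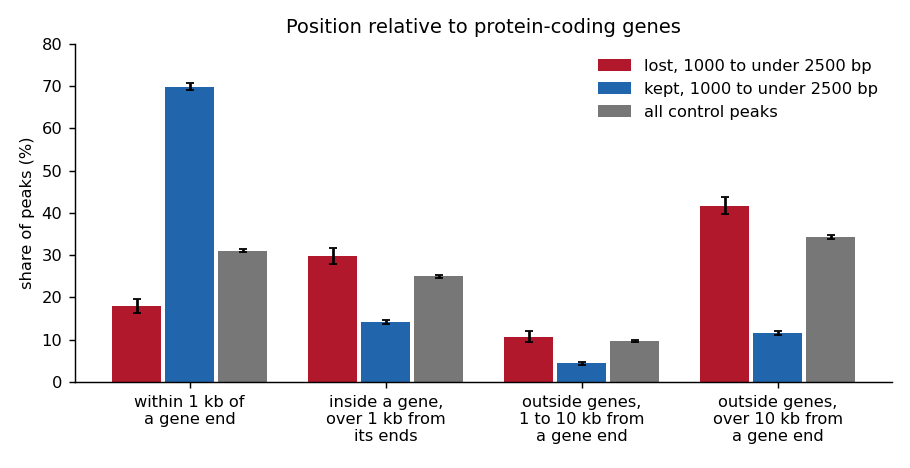
Share of lost wide peaks (2352), kept wide peaks (13962) and all control peaks (48752) in 4 classes of position relative to protein-coding genes. Bars are percentages and error bars exact 95% intervals for counting error. Lost peaks are mostly away from gene ends, while 69.9% of kept peaks are at a gene end.

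The difference by position was present in every width band. At gene ends 4.14% of wide control peaks were lost (421 of 10181), and elsewhere 31.5% (1931 of 6133). From 1000 to under 1250 bp the shares were 9.98% and 40.8%, from 1250 to under 1500 bp 4.39% and 29.0%, and from 1500 to under 2000 bp 1.59% and 17.5%. From 2000 to under 2500 bp they were 1.01% (12 of 1187) and 5.88% (18 of 306). In each band the intervals of the 2 positions did not overlap. In bins of 125 bp, the lost share at gene ends was 13.6% from 1000 to under 1125 bp and at most 1.75% in every bin from 1500 bp on, while elsewhere it was 44.0% in the first bin and stayed at 7.63% or more up to 2250 bp.

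**Figure D2:**
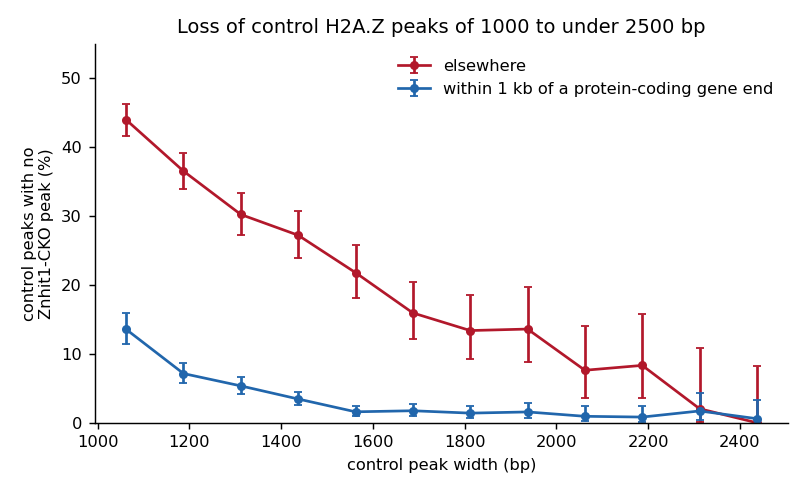
Percentage of control peaks that have no Znhit1-CKO peak, by control peak width in bins of equal size, for peaks within 1 kb of a protein-coding gene end and for peaks elsewhere. Error bars are exact 95% intervals for counting error. Loss falls with width in both positions and is higher away from gene ends in every bin up to 2250 bp.

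Members at gene ends lay mostly at starts, but they lay only at a far end more often than kept peaks did. Strand was known for genes with a promoter in the RefSeq table, which has none on chromosome 18. Among 325 gene-end members at such genes, 249 (76.6%) lay within 1 kb of a start and 76 (23.4%, 18.9 to 28.4%) only at a far end, where transcription stops. Of 7944 kept peaks, 97.2% lay at a start and 2.81% only at a far end. A further 84 gene-end members and 1560 kept peaks off chromosome 18 could not be classed for want of a strand. By width band, the shares only at a far end were 21.6% and 5.33% from 1000 to under 1250 bp, 23.2% and 2.81% from 1250 to under 1500 bp, and 31.1% and 1.70% from 1500 to under 2000 bp. In the widest band only 10 members could be classed. A protein-coding transcription start lay inside 237 of 2280 members off chromosome 18 (10.4%, 9.17 to 11.7%), against 60.1% of kept peaks. From 1000 to under 1250 bp the shares were 9.33% and 42.9%, and from 1500 to under 2000 bp 11.4% (30 of 263) and 3279 of 4685 peaks. Starts on both strands, as at a shared promoter of 2 diverging genes, lay in 2 of the 237 members (0.844%) and in 8.93% of the kept peaks with a start.

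Where a member did cover a coding transcription start, it was placed lopsidedly on it. A median of 460 bp of the lost peak lay upstream of the start and 773 bp downstream (257 starts). In kept peaks the start sat near the middle, with 726 bp upstream and 776 bp downstream (10074 starts). Within the band of 1000 to under 1250 bp, lost peaks had 427 bp upstream (373 to 459 bp) and kept peaks 499 bp (491 to 509 bp). Downstream they had 705 bp (637 to 771 bp) and 637 bp (627 to 647 bp). From 1250 to under 1500 bp the upstream medians were 581 and 662 bp and the downstream medians 813 and 708 bp. From 1500 to under 2000 bp the upstream medians were 567.5 and 840 bp and the downstream medians 1072 and 852 bp, with 32 starts in lost peaks. Within a band the width is nearly fixed, so a shorter upstream part goes with a longer downstream part. The upstream intervals of lost and kept peaks did not overlap in the first 2 bands and did in the third, and the downstream intervals overlapped in all 3.

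Members inside genes also differed in where they lay along the gene. For peaks inside a single gene of known strand and more than 1 kb from its ends, the median position was 59.7% of the gene's length from its start for members (52.8 to 62.2%, 543 peaks) and 34.9% for kept peaks (32.5 to 37.0%, 1586 peaks). The last 20% of the gene held 27.6% of such members and 11.6% of such kept peaks, and the first 20% held 16.8% and 33.0%. Kept peaks here include some at internal starts. Without peaks that hold an annotated start, the medians were 60.9% (489 members) and 47.5% (737 kept peaks), with intervals of 57.4 to 64.6% and 43.7 to 51.8%. The order was the same in each width band, with medians of 57.1% and 41.6% from 1000 to under 1250 bp, 59.9% and 34.9% from 1250 to under 1500 bp, and 62.2% and 26.7% from 1500 to under 2500 bp.

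**Figure D3:**
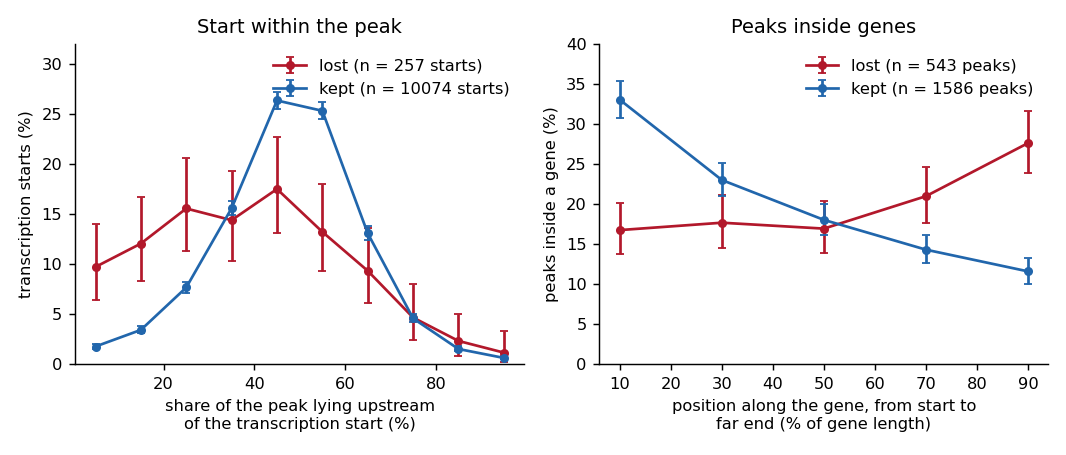
Left, share of the peak that lies upstream of a protein-coding transcription start, for 257 starts in lost and 10074 starts in kept peaks; right, position along the gene for 543 lost and 1586 kept peaks inside genes. Points are percentages of starts or peaks per bin and error bars exact 95% intervals for counting error; lost peaks lean downstream of starts and toward the far ends of genes.

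Some long genes held several members. In all, 1024 protein-coding genes were overlapped by at least 1 lost wide peak, 81 by at least 2, 15 by at least 3 and 6 by at least 4. Of all wide control peaks, 14.4% were lost. Genes overlapped by kept wide peaks were not counted in this way, so these numbers are description only. Hs6st3, which encodes a heparan sulfate sulfotransferase, held 5, and its span carried 6 wide control peaks in all. Cdh13, a cadherin, lost all 4 of its wide peaks, which were 1000 to 1176 bp wide. Grip1, a scaffold protein of glutamate receptors, lost 4 of 5, and Syt1, a synaptic vesicle calcium sensor, 4 of 5. Ntm, a neuronal cell adhesion protein, lost 4 of 7, and Zfhx3, a large homeodomain and zinc finger factor, 4 of 6. These are long genes, spanning 513 to 1185 kb. Of the 25 members in them, 1 lay at a gene end. It was within the span of Syt1, but the end was that of another gene, Gm5136.

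Members were also near other lost peaks. The nearest other control peak was itself lost for 60.2% of members (58.2 to 62.2%), against 43.4% for kept peaks and 52.2% for all control peaks. By width band, in rising order, it was 60.2% and 42.8%, 60.1% and 40.3%, 60.5% and 44.4%, and 63.3% and 50.2%, and only in the widest, with 30 members, did the intervals overlap. Within the class over 10 kb from genes these shares were 66.1% for members and 56.2% for kept peaks, and at gene ends 57.7% and 41.8%. Read along the chromosome, a member sat in an unbroken run of a median of 3 lost control peaks of any width, and the longest run held 32. Of all control peaks, 50.7% were lost, and runs without a member were not measured. The run lengths are therefore description only and do not set members apart from other lost peaks. Of the 2001 runs with a member, 288 (14.4%) held at least 2 members and 2 held 5. The runs named here were chosen after their values were seen. At chr4:130894958-131819622 a run of 19 lost peaks with 5 members spanned 925 kb around Laptm5, Matn1 and Ptpru. At chr8:32477112-33331231 a run of 11 with 5 members spanned 854 kb and took in Nrg1 and Wrn. The run at chr12:106410984-107966015 held 32 lost peaks and 4 members in 1555 kb, beside Bcl11b, a zinc finger factor of T cells and neurons.

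The nearest Znhit1-CKO peak lay a median of 18766.5 bp from a member (17393 to 20162 bp). For kept peaks the nearest Znhit1-CKO peak that did not overlap them was 16280 bp away (15822 to 16830 bp), so members were only somewhat more remote. Only 44 members (1.87%) had one within 500 bp and 165 (7.02%) within 2000 bp, while 268 (11.4%) had none within 100000 bp. For kept peaks these shares were 4.00%, 9.96% and 6.39%. Members over 10 kb from genes were the most remote, with a median of 25920 bp, those at gene ends had 15016 bp, and those 1 to 10 kb from a gene 8744.5 bp. Where wide peaks were kept, Znhit1-CKO peaks covered a median of 80.3% of the control peak. That cover was lower away from genes too, at 64.4% over 10 kb from genes against 82.9% at gene ends.

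Most members carried one of the authors' differential regions, which the deposited list gives mostly as 400 bp intervals with no sign or fold. This measure comes from the same 2 genotypes as the rule and is given as description. Of the members, 2025 (86.1%, 84.6 to 87.5%) overlapped a differential region, against 62.6% of kept peaks of the same widths and 48.9% of all control peaks. The share among members changed little with position, at 86.0% at gene ends, 85.7% inside genes, 81.2% outside genes within 10 kb and 87.7% farther out. Among kept peaks it ran from 66.8% at gene ends down to 47.0% farthest from genes. It also changed little with member width, between 83.3% and 88.4% over the 4 bands, while among kept peaks it rose from 53.2% in the narrowest band to 71.4% in the widest. The remaining 327 members had no differential region.

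Within a member, the differential region lay close to the middle. Its centre was a median of 137 bp from the centre of the lost peak, and 132 bp in kept peaks. Measured from a coding transcription start inside the peak, the region centre lay a median of 127 bp downstream in members (187 pairs of start and region) and 126 bp downstream in kept peaks (4418 pairs). It was downstream in 71.1% and 72.0% of them.

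The promoters in lost peaks were poorer in CpG than those in kept peaks. A total of 199 protein-coding promoters of 189 genes lay wholly in a member. Their median ratio of observed to expected CpG was 0.602 (0.527 to 0.648), against 0.805 (0.801 to 0.811) for 9649 promoters in kept peaks and 0.567 for all 21263. The median number of CpGs in the 300 bases was 15 in lost and 23 in kept peaks, while G and C content differed less, at 60.7% and 63.0%. A ratio under 0.6 was found in 49.7% of the promoters in lost peaks (42.6 to 56.9%), in 17.9% of those in kept peaks and in 52.3% of all. The order held in each width band with enough promoters. The medians were 0.511 and 0.745 from 1000 to under 1250 bp, 0.684 and 0.798 from 1250 to under 1500 bp, and 0.640 and 0.829 from 1500 to under 2000 bp, where the 27 promoters in lost peaks had an interval of 0.444 to 0.850. Promoters of long non-coding RNAs showed a wider gap. Their median was 0.402 for the 113 in lost peaks, 0.793 for the 1311 in kept peaks and 0.245 for all 11588. That gap was not compared within width bands or apart from coding genes. Of lost peaks at a long non-coding RNA gene end, 212 of 262 had no protein-coding gene end within 1 kb, against 771 of 2138 kept peaks.

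**Figure D4:**
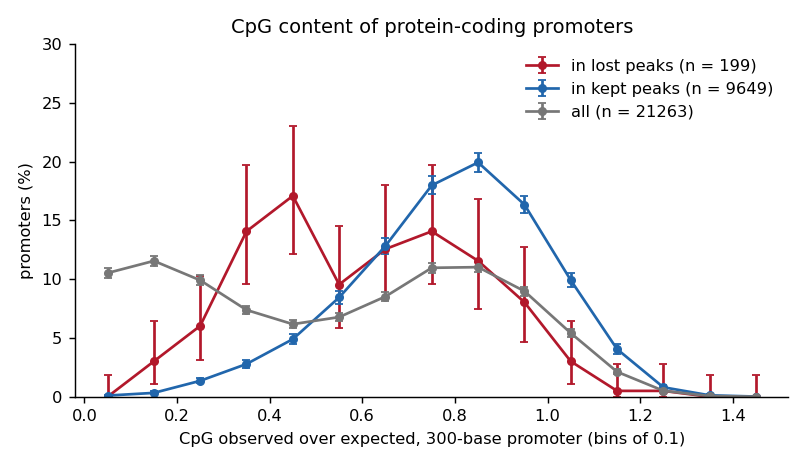
Ratio of observed to expected CpG in 300-base promoters of protein-coding genes, as the percentage of promoters per bin of 0.1, for 199 promoters in lost peaks, 9649 in kept peaks and all 21263. Error bars are exact 95% intervals for counting error. Promoters in lost peaks spread over low and high ratios, with 49.7% under 0.6, and those in kept peaks gather at high ratios.

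Of 13 short motifs, the TATA box and the GC box had shares whose intervals did not overlap between lost and kept peaks. All were searched on both strands of the 300 bases, and a match is a description of letters, not a site. The TATA box, TATAAA, was in 9.55% of promoters in lost peaks (5.85 to 14.5%), in 4.94% of those in kept peaks (4.52 to 5.40%) and in 12.6% of all. The GC box GGGCGG was in 63.8% (56.7 to 70.5%), 71.5% (70.6 to 72.4%) and 46.2%, and in 4 of the 6 printed promoters, Sycp2, Syce3, Crabp1 and Grik3. The full cyclic AMP response element TGACGTCA was in 2 of the 199 promoters in lost peaks (1.01%, 0.122 to 3.58%), in 3.65% of those in kept peaks and in 2.23% of all. The GATA letters AGATAA were in 8.04%, 4.50% and 9.65%. For the CCAAT box, CCAAT, the shares were 36.7%, 36.9% and 38.2%. The E-box CACGTG, which the Sycp1 promoter holds, was in 10.1%, 10.6% and 7.84%. The NRF1 letters GCATGCGC, which Syce1 holds, were in 6.03%, 5.92% and 3.52%. For the other 6 motifs searched (TAACGG, GGCGGGAA, TTCAGCACC, GGACAGNGC, GTTGCCAT and AGGGGGCGC) the intervals of lost and kept peaks overlapped. AGGGGGCGC can overlap GGGCGG by some of its letters.

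At the level of genes, 443 of the 11341 protein-coding genes with a wide control peak at a gene end had lost at least 1 (3.91%, 3.56 to 4.28%). For 367 of them all such wide peaks were lost, and 76 kept another. The widest of all, 2381 bp at chr4:125489688-125492068, covered the start of Grik3, and the nearest Znhit1-CKO peak was 210600 bp away. Next came Slitrk1, a synaptic adhesion protein (2371 bp), whose nearest Znhit1-CKO peak was only 497 bp away. They were followed by Caly, which encodes a vesicle protein of neurons that binds dopamine receptors (2336 bp, no differential region), Tmem132e (2330 bp) and Alk, a receptor tyrosine kinase of the developing nervous system (2302 bp). Crabp1 had 2212 bp, Comp, a cartilage matrix protein, 2177 bp, and Zfp42, the pluripotency marker also called Rex1, 2138 bp with the nearest Znhit1-CKO peak 641411 bp away. The potassium channel gene Kcnk12 (2073 bp), the receptor gene Gpr12 (2072 bp), the adenylyl cyclase gene Adcy8 (2071 bp) and the Wnt receptor gene Ror2 (2004 bp) made up the 12 widest. Of the 12, 11 had a differential region, near the share of 86.0% for all gene-end members.

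Genes of meiotic chromosome structure were among the members. Of the 17 listed genes of the meiotic axis, synapsis and cohesin, 12 had a wide control peak at a gene end and 4 had lost it (33.3%, 9.92 to 65.1%). These were the 4 synaptonemal complex genes printed above. Their peaks were narrow for this range, at 1099 bp for Sycp2, 1051 bp for Syce3, 1037 bp for Sycp1 and 1016 bp for Syce1, where 13.6% of all gene-end peaks were lost. Each covered the transcription start, each carried a differential region, and the nearest Znhit1-CKO peak was 5309 bp away at Sycp2 and 58592 bp away at Sycp1. Of 7 genes of the meiotic double-strand break machinery with a wide peak, Ankrd31, a partner of REC114, lost it (1244 bp), a share with an interval of 0.361 to 57.9%. Of 19 strand exchange and crossover genes, Ccnb1ip1, which encodes the crossover regulator HEI10, lost it (1261 bp, interval of the share 0.133 to 26.0%). Of 13 regulators of meiotic entry and pachytene, Meioc, needed for entry into the meiotic programme (1463 bp), and Brdt, a testis bromodomain protein (1041 bp), lost it (interval of the share 1.92 to 45.4%). All 4 of these peaks covered a start and had a differential region, which most members had. Of the 8 piRNA pathway genes with a wide peak none had lost it (0%, which allows up to 36.9%), and among 18 genes of sperm and spermatids 1 had, Dnah8, an axonemal dynein (1442 bp, interval of the share 0.141 to 27.3%). Over all protein-coding genes with a wide peak the share was 3.91%. The intervals of all lists in this paragraph include that value, except that of the meiotic axis, synapsis and cohesin. The interval of that list does include the 13.6% lost among all gene-end peaks of 1000 to under 1125 bp, the widths of its 4 lost peaks.

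Genes of spermatogonia gave 3 losses among 20 (15.0%, 3.21 to 37.9%). Crabp1 and Lhx1 lost wide peaks of 2212 and 1945 bp over their starts, and Lin28a, an RNA-binding protein of undifferentiated cells, one of 1338 bp that did not cover a listed start. Among Sertoli cell markers, 2 of 13 had a lost wide peak, Clu (1323 bp) and Cldn11, a tight junction protein (1063 bp). Among markers of Leydig, peritubular, endothelial and immune cells it was 1 of 6, Des (1032 bp), which also kept another wide peak. The intervals were 1.92 to 45.4% for the Sertoli list and 0.421 to 64.1% for the other somatic list. These intervals and that of the spermatogonia list include the 3.91% found over all genes. H2A.Z in a whole-testis digest cannot be assigned to a cell type from a peak list.

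Among the 16 lists, those of developmental transcription factors held the most genes with a lost wide peak. The lists were chosen with earlier results of these data known, and the share over all protein-coding genes with a wide peak was 3.91%. Of 67 homeobox and other patterning genes with a wide control peak at a gene end, 21 had lost one (31.3%, 20.6 to 43.8%), and 15 of these had no other wide peak left. The widest were at Lhx1 (1945 bp), Otx1 (1927 bp), Lmx1b (1864 bp) and Rax (1859 bp), homeodomain factors of head, kidney, limb or eye development. Of these peaks only that at Lhx1 covered a listed start, and Rax is on chromosome 18, for which no starts were listed. Of 62 Sox, Pax, T-box, forkhead, Gata and bHLH genes, 17 had lost one (27.4%, 16.9 to 40.2%), among them Sox14 (1708 bp, no differential region), Foxe3 (1526 bp) and Foxi3 (1357 bp). The median width of the lost peaks was 1262 bp in the first group and 1217 bp in the second, against 1242 bp for all gene-end members. For the homeobox group the median distance to the nearest Znhit1-CKO peak was 3418 bp, with 16 of 21 within 10000 bp, and for the second group 8235 bp, with 9 of 17. For all gene-end members it was 15016 bp, with 158 of 421 within 10000 bp (37.5%). Lmx1b had such a peak at 732 bp. A differential region was on 15 of the 21 and on 12 of the 17, beside 86.0% of all gene-end members. No interval was computed for these small counts, so they do not show that the groups differ from other gene-end members.

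Neuronal and signalling genes followed at lower shares than the transcription factor lists. These lists too were chosen with earlier results known, and 3.91% of all protein-coding genes with a wide peak had lost one. Of 112 neuronal receptor, channel and transmitter genes with a wide peak, 16 had lost it, and none of the 16 kept another (14.3%, 8.39 to 22.2%). Grik3 led, then Syt5, a synaptotagmin (1883 bp), Slc32a1, the vesicular transporter of inhibitory transmitters (1763 bp), and Cacna1b, the pore subunit of N-type calcium channels (1674 bp). The Syt5 peak also lay at an end of Ptprh, and neither it nor the Slc32a1 peak covered a listed start. For the 16 neuronal genes the median distance to a Znhit1-CKO peak, 23524.5 bp, was longer than that of the transcription factor groups. Of 111 developmental ligands and receptors, 12 had lost one (10.8%, 5.71 to 18.1%), with the widest at Wnt16 (1960 bp, no differential region), Sema6c (1798 bp), Dkk2 (1465 bp) and Epha10 (1398 bp). The Epha10 peak also lay at an end of Maneal.

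The lists of genes used in most cell types held no member, but the intervals of all 3 include the 3.91% found over all genes. None of 62 cytoplasmic ribosomal protein genes with a wide peak had lost one (0%, which allows up to 5.78%), none of 27 G2 and M phase genes (up to 12.8%), and none of 22 that encode H2A.Z or parts of the complexes that exchange it (up to 15.4%). Znhit1 itself kept its wide peak of 2003 bp at chr5:136986268-136988270, of which Znhit1-CKO peaks covered 71.0%. A peak at a gene's end does not report whether the deleted part is missing and so does not check the genotype. The H2A.Z genes kept theirs as well, with 68.6% and 92.5% cover of the 2 peaks at H2az1 and 89.3% at H2az2. Over all 16 lists, 80 of 572 genes with a wide peak had lost one (interval 11.2 to 17.1%), and 363 of 10769 protein-coding genes in no list (3.37%, 3.04 to 3.73%). The lists lean to tissue-specific genes and were chosen with earlier results of these data known, so this difference supports nothing about genes in general.

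**Figure D5:**
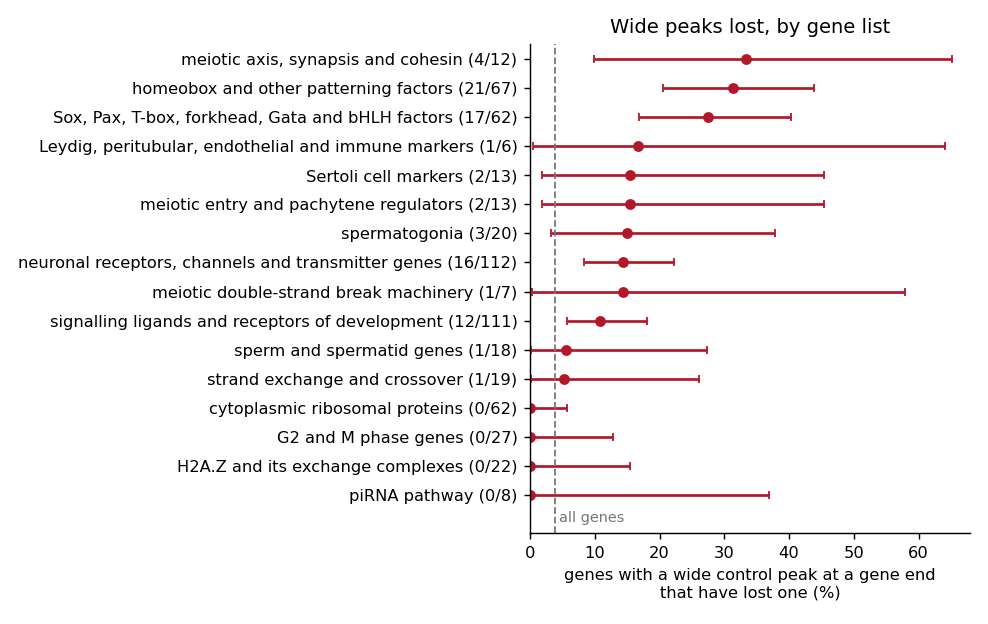
Percentage of genes with a wide control peak at a gene end that had lost at least 1, for 16 gene lists, with lost and total genes in brackets. Error bars are exact 95% intervals for counting error, and the dashed line marks 3.91% over all protein-coding genes with such a peak. For 5 lists (meiotic axis, homeobox, Sox and Pax, neuronal and signalling) the interval lies wholly to the right of the line. The line is not matched for peak width, and the lists were chosen with earlier results of these data known.

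Testis copies of general genes were a further set, chosen after their values were seen. Many are retrocopies without introns on autosomes whose general gene is on the X chromosome, and they are used by germ cells in which the X is silent. Of 17 such copies, 11 had a wide control peak at a gene end or start and 8 had lost it. The 8 were Rpl10l and Rpl39l (1262 and 1355 bp), which encode ribosomal proteins, the ADP/ATP carrier gene Slc25a31 (1018 bp), the cytochrome c gene Cyct (1168 bp), the calcineurin subunit gene Ppp3r2 (1412 bp), Naa11 (1319 bp), Timm8a2 (1190 bp) and Pdha2 (1173 bp). Each of the 8 peaks had a differential region, as did 86.1% of all members. Cstf2t, Utp14b and Rbmxl2 kept theirs, with 85.2%, 72.2% and 15.1% of the control peak covered. Of the 15 general genes with a wide peak, 1 had lost it, the X-linked Slc25a5 (1368 bp). Over all protein-coding genes with a wide peak at a gene end, 3.91% had lost one. Narrower peaks, outside the rule, were lost in both sets. They were lost at the general genes Rpl10 (866 bp) and Pgk1 (637 bp, with another of 930 bp kept). Among the copies they were lost at Cetn1 (518 bp), Tktl2 (522 bp) and Gk2 (223 and 935 bp). Copies and general genes are similar in sequence, and no source used here says how reads that fit both were placed.

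The widest members far from genes were narrower than the widest at genes. Median width was 1174 bp (1157 to 1190 bp) for members over 10 kb from genes and 1242 bp (1202 to 1262 bp) at gene ends. The widest over 10 kb from every protein-coding gene end were 2223 bp at chr10:83805646-83807868, 42883 bp from 1500009L16Rik, and 2173 bp at chr13:69454965-69457137, 40814 bp from Tent4a, a poly(A) polymerase gene. The next were 2130 bp at chr6:31636749-31638878, 72811 bp from Podxl, and 2129 bp at chr18:82827682-82829810, 79877 bp from Zfp516. Each had a differential region. The first was 82122 bp from a Znhit1-CKO peak and the other 3 between 1903 and 3634 bp. Among the 1931 members with no protein-coding gene end nearby, 212 (11.0%) had the end of a long non-coding RNA gene within 1 kb and 94 (4.87%) that of a pseudogene. For the 4202 kept peaks of this kind the shares were 18.3% and 2.09%, so pseudogene ends were the more common among members and non-coding RNA ends the less common.

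Members were found on every autosome. The lost share of wide control peaks ran from 11.5% (123 of 1070) on chromosome 7 to 170 of 889 on chromosome 10, and over all autosomes it was 14.5% (2328 of 16057). On the X chromosome, 24 of 255 were lost (9.41%, 6.12 to 13.7%). At gene ends the X had 6.06% (12 of 198, 3.17 to 10.3%) and the autosomes 4.10%, and elsewhere the X had 21.1% (12 of 57, 11.4 to 33.9%) and the autosomes 31.6%. In both positions the autosomal value lay inside the interval of the X. Of the wide control peaks, 77.6% on the X and 62.2% on the autosomes were at gene ends.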

How the data were processed

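H2A.Z ChIP-seq was made from 8 libraries of testis cells at postnatal day 14, in 4 groups of 2 replicates. The authors deposited 3 lists of intervals, with a chromosome, a start and an end each and no other value: 48752 control peaks, 31156 Znhit1-CKO peaks and 24367 differential regions, 24362 of them 400 bp wide and credited to edgeR by the list's name. The submitters' processing notes name mm10 and, as tools, MACS2 2.2.4, BWA 0.7.17, Picard 2.20.7, SAMtools 1.9 and cutadapt 2.5. No source used here gives peak thresholds, pooling of replicates or the direction of differential regions.

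Widths are end minus start, and an overlap is at least 1 bp. Genes came from RefSeq on GRCm38.p6 (21887 protein-coding genes on chromosomes 1 to 19, X and Y) and promoters from its table of 32851, which has none on chromosome 18. A peak at a gene end lies within 1000 bp of it. Shares have exact (Clopper-Pearson) intervals. No test was run, since each genotype has 1 list and the rule used the same contrast. The members and the 16 lists were chosen with earlier results of these data known. Of 1045 list entries, 4 were not found (Hop2, Sws1, H1f9 and Vps71). Named genes are the 12 widest members at gene ends, up to 4 per list by width, the 4 widest members over 10 kb from gene ends, and up to 6 genes holding the most members. Znhit1, H2az1 and H2az2 are given for reference. An item that this rule named is not reported here. Overlaps were tested on simulated data and checked against bedtools 2.31.1. Python 3.11.15, pandas 2.3.3, numpy 2.4.6, scipy 1.17.1 and matplotlib 3.10.9 were used.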

Additional observations from a re-analysis of the deposited data

How the results depend on the processing

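The share of wide control peaks that were lost, 14.4%, was 30.8% with an overlap of at least 50% of each peak required, 21.2% against Znhit1-CKO peaks of at least 500 bp, 12.4% where a differential region was also required, 21.1% for widths of 1000 to under 1500 bp and 4.57% for 1500 to under 2500 bp. The share of members at a protein-coding gene end, 17.9%, was 15.4% with a window of 500 bp, 23.2% with 2000 bp, 31.6% with the ends of all annotated genes, 24.6% for widths of 1500 to under 2500 bp and, as an alternative added after seeing the data, 10.4% where a coding start had to lie in the peak. The share with a differential region, 86.1%, was 0.0425% where the regions on a peak had together to cover at least 50% of it. A single region of 400 bp cannot do so for peaks of 1000 bp or more. The median distance to a Znhit1-CKO peak, 18766.5 bp, was 32954 bp against Znhit1-CKO peaks of at least 500 bp. The promoter CpG ratio and the share of list genes moved by less than their intervals under every alternative tried. No paired analysis was possible because each genotype has a single peak list without values for its replicates, and for the same reason no replicate could be left out. The depth of each library and the peak threshold limit what a lost peak can show.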
